A study of Mus musculus with 3 samples.

Results

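Transcript levels were described for 10 genes of the paired immunoglobulin-like receptors of myeloid cells, out of the 24421 gene symbols with a value in each library. The genes were taken by symbol: Lilrb4a and Lilr4b of the leukocyte immunoglobulin-like receptor family (LILR), Pirb, Pira2 and Pira6 of the paired immunoglobulin-like receptors (PIR), Cd300a, Cd300lf, Cd300lb and Cd300ld of the CD300 family, and Sirpa, a signal regulatory protein (SIRP). RNA came from granulocyte progenitors, precursors committed to making granulocytes, purified by flow cytometry from the bone marrow of female mice. The non-tumor-bearing control library (NTB) and the library from mice with orthotopically implanted 4T1 mammary tumor cells (4T1-TB) were from F1 semi-syngeneic mice with the H-2b/d haplotypes. The third library was from C57BL/6 mice (H-2b) deficient in IRF8, a factor that directs progenitors toward monocytes and dendritic cells and away from neutrophils (IRF8-deficient). Strain and genotype cannot be told apart in any comparison with that library. The sources used here give neither the number and age of the mice behind each library nor the form of the Irf8 allele.

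Paired receptors are surface proteins with similar extracellular immunoglobulin domains and opposite signaling. Inhibitory members carry immunoreceptor tyrosine-based inhibitory motifs (ITIMs) in a long cytoplasmic tail and recruit phosphatases, whereas activating members have a short tail and signal through adaptors with an activating motif (ITAM). On neutrophils and their precursors the balance of the inhibitory and activating forms sets the threshold for adhesion, phagocytosis and release of granules. Their genes lie in clusters of recent duplicates that vary between mouse strains.

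The similarity of the members bears on every level given below, so the sequences that separate a pair are shown first. Lilrb4a encodes gp49B, an ITIM-bearing inhibitory receptor, and Lilr4b encodes gp49A, its partner without ITIMs. Both lie on the plus strand in mm10 and are neighbours, Lilrb4a at chr10:51490956-51496611 and Lilr4b at chr10:51480632-51486703. Their coding sequences of 1005 and 909 bases were identical at 871 of 907 aligned bases (96.0%). The spliced coding ends from coding base 781 are shown because the longest stretch without a partner lies there. Their exons lie within chr10:51494148-51496241 for Lilrb4a and chr10:51483848-51485757 for Lilr4b, and the sequences come from the mm10 reference, not from the reads. Capitals mark bases that differ in the alignment or have no partner in the other gene.
Lilrb4a: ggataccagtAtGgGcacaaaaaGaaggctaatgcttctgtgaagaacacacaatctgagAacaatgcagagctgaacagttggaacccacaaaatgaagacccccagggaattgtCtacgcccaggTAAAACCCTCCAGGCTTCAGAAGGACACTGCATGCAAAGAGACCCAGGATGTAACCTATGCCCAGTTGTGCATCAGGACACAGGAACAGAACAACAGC
Lilr4b: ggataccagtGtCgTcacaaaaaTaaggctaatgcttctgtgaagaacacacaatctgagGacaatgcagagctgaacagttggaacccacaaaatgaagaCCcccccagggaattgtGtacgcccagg
The Lilrb4a end is 225 bases long with 104 in capitals, and its final run of capitals has no partner in Lilr4b. The Lilr4b end is 129 bases long with 8 in capitals.

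Pirb encodes PIR-B, an inhibitory receptor for MHC class I molecules, and Pira2 and Pira6 encode activating PIR-A receptors that pair with the Fc receptor gamma chain. Pirb (chr7:3711409-3720391) and Pira2 (chr7:3836812-3845051) lie on the minus strand of chromosome 7, and 1945 of 2039 aligned coding bases were identical (95.4%), with an identical run of 477 bases. The CD300 genes lie in a cluster on chromosome 11, Cd300a at chr11:114890041-114904654 on the plus strand, and Cd300lb (chr11:114922781-114934386), Cd300ld (chr11:114982274-114989922) and Cd300lf (chr11:115116214-115133992) on the minus strand. Cd300ld and Cd300lf shared 82.8% of 658 aligned coding bases, and the other CD300 pairs shared 62.0% to 67.7%. Sirpa lies alone among these genes at chr2:129592835-129632228 on the plus strand.

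How much of each transcript could be assigned to 1 gene was measured as the share of windows found exactly in a transcript of another gene, leaving out genes that overlap the same locus on the same strand. For 50-base windows the share was 94.0% for Pira2, 37.3% for Pirb, 27.8% for Lilrb4a and 24.1% for Lilr4b. It was 6.04% for Cd300lf, 3.89% for Cd300ld, 3.31% for Cd300a, and 0 for Cd300lb and Sirpa. With 100-base windows the Pira2 share was 86.5% and the Pirb share 24.6%. Pira2 shared most with the predicted gene Gm15922, not with Pirb. How reads that map to several genes were treated is not stated in the sources used here, so the separate levels of Pira2, Pira6 and, to a lesser degree, Pirb, Lilrb4a and Lilr4b are uncertain beyond counting error.

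**Figure D1:**
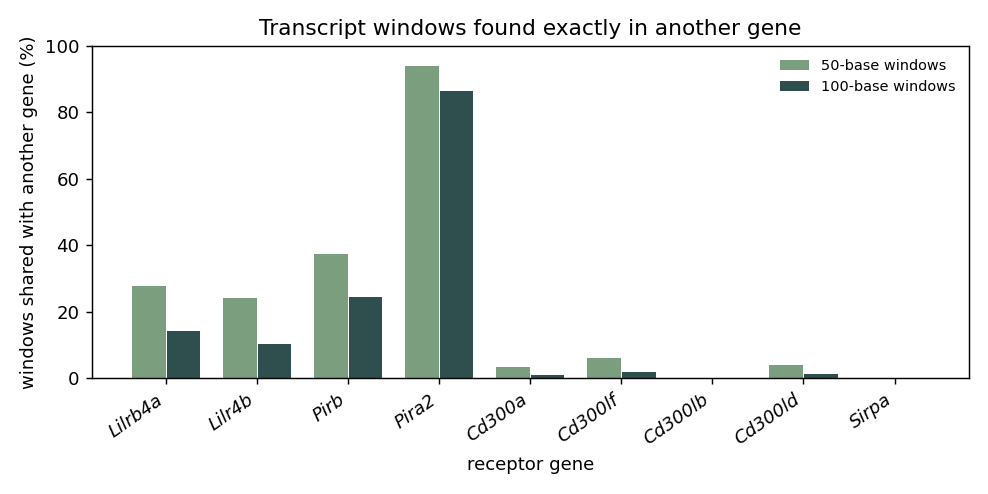
Share of transcript windows, in percent, that occur exactly in a transcript of another gene, for windows of 50 and 100 bases, in the 9 members with a reference transcript. Pira2 stands at 94.0% and 86.5%, whereas Cd300lb and Sirpa stand at 0.

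Promoter windows from RefSeq (GRCm38.p6, the assembly also called mm10) were matched for 7 of the 10 genes. No entry was matched for Lilrb4a, Pira6 or Sirpa. GAGGAAGT, a word bound by the myeloid factor PU.1, was searched on both strands in the 300 bases from 250 before to 50 after each start. It occurred in 4 of the 7 windows and in 3.20% of 32851 promoters of that length. The 4 are shown from 250 bases before to 10 bases after the start, with the word in capitals, because they hold the word. Their genes had a higher RPKM in both other libraries than in NTB, and so did Lilr4b, whose window lacks the word. The windows of Cd300a and Cd300lb also lack it, and these genes were not higher in 4T1-TB than in NTB. In IRF8-deficient, however, Cd300lb was 9.69-fold and Cd300a 1.23-fold its NTB level. With so few windows a link between the word and the levels was not tested.
Pirb (chr7:3720373-3720632, minus strand): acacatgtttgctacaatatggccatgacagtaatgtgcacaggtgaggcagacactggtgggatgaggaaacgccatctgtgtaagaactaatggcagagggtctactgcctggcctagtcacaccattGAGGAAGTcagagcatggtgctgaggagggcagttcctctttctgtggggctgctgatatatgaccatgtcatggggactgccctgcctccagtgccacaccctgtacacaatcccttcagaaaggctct
Pira2 (chr7:3845042-3845301, minus strand): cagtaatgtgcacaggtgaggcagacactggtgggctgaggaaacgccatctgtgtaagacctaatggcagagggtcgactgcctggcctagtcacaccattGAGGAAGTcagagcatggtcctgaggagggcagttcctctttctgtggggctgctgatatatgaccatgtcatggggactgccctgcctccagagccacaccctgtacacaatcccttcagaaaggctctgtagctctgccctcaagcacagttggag
Cd300ld (chr11:114989877-114990136, minus strand): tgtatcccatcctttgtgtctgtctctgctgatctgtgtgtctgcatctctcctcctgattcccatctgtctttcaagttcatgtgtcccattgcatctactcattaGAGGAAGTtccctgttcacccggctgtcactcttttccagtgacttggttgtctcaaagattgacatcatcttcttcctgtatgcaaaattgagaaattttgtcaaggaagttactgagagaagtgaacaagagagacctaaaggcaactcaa
Cd300lf (chr11:115133983-115134242, minus strand): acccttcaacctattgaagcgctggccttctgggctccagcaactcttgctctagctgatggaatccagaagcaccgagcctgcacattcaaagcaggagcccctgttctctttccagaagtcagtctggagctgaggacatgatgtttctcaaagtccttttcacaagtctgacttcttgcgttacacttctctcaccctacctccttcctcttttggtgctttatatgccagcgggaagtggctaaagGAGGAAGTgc
The word began 120 bases upstream of the start in Pirb, 148 in Pira2 and 143 in Cd300ld, and at the start itself in Cd300lf. The Pirb and Pira2 windows are themselves duplicates, identical at 264 of 272 aligned bases (97.1%), so their matches are not separate cases. The shorter ETS word GGAAGT, which is contained in GAGGAAGT, was in 5 of 7 windows, with Cd300lb the added gene, and in 23.8% of all promoters. The C/EBP word TTGCNNAA was in Cd300a alone of the 7 and in 10.8% of all. An ETS-IRF composite word and an interferon response word were in 0 of the 7 windows and in 2.72% and 3.44% of all. These matches describe letters in a window and were not tested as binding sites.

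Expression is given as RPKM, reads per kilobase of gene model scaled by library size, with 1 library per group. There was therefore no replicate and no statistical test, and differences describe these 3 libraries. Intervals are 95% intervals from recovered whole reads and cover counting error only, not variation between mice. Recovered reads came to 42210856 in NTB and 23330600 in 4T1-TB, against 35630570 in IRF8-deficient, of which the 10 genes held 12227, 9736 and 23389. In bulk samples fewer cells of a type and less RNA per cell cannot be told apart. Irf8, the gene named by the deficient mice, had an RPKM of 43.8 in NTB and 8.60 in 4T1-TB, against 13.7 in IRF8-deficient, so its transcript was lowest in the tumor-bearing library and present in the library labelled IRF8-deficient. Where 3 values follow a gene or a sum without library names, they are for NTB, 4T1-TB and IRF8-deficient in that order. The progenitor marker Mpo, myeloperoxidase, stood at 6811, 6749 and 4012.

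The receptor transcripts together were scarce in NTB and more abundant in both other libraries. Their summed RPKM was 71.7 in NTB and 156 in 4T1-TB, against 307 in IRF8-deficient. Sirpa made up 66.2% of the sum in NTB, against 34.3% and 31.2% in the other libraries. Without Sirpa the sums of the other 9 were 24.2, 103 and 211, so the increase of the sum lay mostly outside Sirpa. Inhibitory genes without Sirpa summed to 18.1, 74.2 and 148, and the activating-type genes or those without ITIMs to 6.13, 28.4 and 63.4. By the deposited RPKM of these members, both types were thus higher in each of the other libraries, and the inhibitory sum was the larger in all 3. Close copies outside the list, such as Gm15922, are not in these sums, so the balance over all such receptors is not known.

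Differences below are on log2(RPKM + 1), which understates those of low genes, with calls of higher or lower from a size of 1. Calls were made over the 10658 genes that reached an RPKM of 1 in any library. Of the 10 members 9 met this minimum. Pira6 did not, Pira2 met it through IRF8-deficient alone, and Cd300ld through 4T1-TB and IRF8-deficient. A call of higher for Pira2 in IRF8-deficient, or for Cd300ld against NTB, is therefore partly set by the filter. In 4T1-TB against NTB 5 members were called higher and 0 lower, where 1.67% of all compared genes were called higher and 1.35% lower. In IRF8-deficient against NTB 7 were called higher and 0 lower, with 8.78% and 5.73% of all compared genes. In IRF8-deficient against 4T1-TB 2 were called higher and 0 lower, with 8.83% and 7.07% of all. At 4-fold 4, 5 and 1 members were called higher in the 3 comparisons, where 0.441%, 1.9% and 1.67% of all compared genes were. Counting error alone is a weak standard at this depth: the interval of the ratio lay above 1 for 36.0%, 40.6% and 41.0% of compared genes and below 1 for 31.9%, 43.4% and 41.1%, a rule added after the values were seen. The medians of the 9 differences were 1.73, 2.89 and 0.57, beside medians of 0.01, -0.02 and 0.00 over all compared genes. The first of these is the value of Cd300ld itself, which passed the minimum only where it is high. Over the 7 members that reached an RPKM of 5 the medians were 2.07, 2.96 and 0.83. The first pair of comparisons shares the NTB library, so a low or high NTB value moves both.

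**Figure D2:**
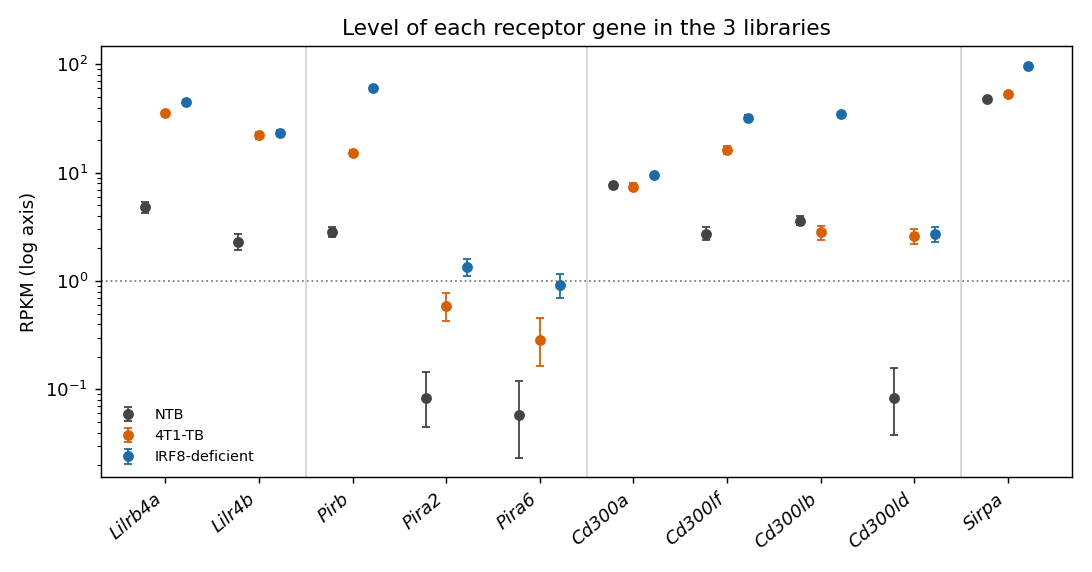
RPKM of each receptor gene in the 3 libraries on a log axis, with 95% Poisson intervals for counting error, and a dotted line at the minimum RPKM of 1. Pira2 and Pira6 lie near or under the line in every library, Sirpa lies highest in every library, and Cd300lb is high in IRF8-deficient alone.

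Markers of maturation and of other cells were read beside these values. Against NTB 1.67% of all compared genes were called higher and 1.35% lower in 4T1-TB, and 8.78% and 5.73% in IRF8-deficient. Of 12 mature neutrophil genes 8 were called higher in 4T1-TB against NTB and 10 in IRF8-deficient against NTB, and their summed RPKM was 8997, 13687 and 102978 in NTB, 4T1-TB and IRF8-deficient. Of 10 secondary and tertiary granule genes 3 and 10 were called higher, with sums of 1635, 1390 and 46266. Of 9 monocyte and macrophage markers compared, 5 were lower in 4T1-TB and 3 in IRF8-deficient, where 1 was higher, with sums of 269, 137 and 260. The part of these shifts in the receptor levels described here was not tested. Of 10 granulocyte progenitor markers 1 was lower in each comparison with NTB, Cd34, with an RPKM of 36.9, 8.73 and 5.41, and 2 were higher in IRF8-deficient, Cebpe (77.4, 108 and 255) and Fcgr3 (101, 108 and 275). Their median difference in IRF8-deficient against NTB was -0.69, with 8 of 10 below 0. There 4 were lower when rescaled without the 20 highest genes, and 6 lower and 1 higher, with a median of -1.22, under scaling by summed reads. Markers of T and NK cells summed to 0.689, 0.696 and 0.696 with Cd3e at 0, and B cell markers summed to 17.1, 12.7 and 12.1. Of 8 erythroid and megakaryocyte markers, Hbb-b1 and Hba-a1 were at 0 in all 3 libraries, and the sum was 1.72, 1.13 and 2.17. The 1 compared among them, Gp9 of platelets, had 0.661, 0.555 and 1.94 and was not called. Dendritic cell markers summed to 23.3, 24.7 and 21.5, most of it Bst2 (17.7, 20.4 and 12.6), and 0 of the 5 compared were called against NTB. Those of mast cells, basophils and eosinophils summed to 23.7, 23.9 and 11.8, most of it the protease gene Mcpt8 (15.7, 20.4 and 8.73). Of the 4 compared, 1 was called lower in each comparison with NTB, Prg2, an eosinophil granule protein gene (3.41, 0.484 and 0.640).

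Among the LILR genes both partners were low in NTB and several times higher in both other libraries. Lilrb4a had an RPKM of 4.79 in NTB (4.28 to 5.35) and 35.3 in 4T1-TB (33.3 to 37.4), against 45.2 in IRF8-deficient (43.2 to 47.4). Lilr4b had 2.30 (1.95 to 2.69), 22.1 (20.6 to 23.8) and 23.4 (21.9 to 24.98). Neither NTB interval reached the intervals of the other libraries. Against NTB the inhibitory Lilrb4a was 7.37-fold higher in 4T1-TB (6.51 to 8.36) and 9.44-fold higher in IRF8-deficient (8.38 to 10.7). Lilr4b was 9.64-fold (8.08 to 11.5) and 10.2-fold (8.58 to 12.2) higher. In 4T1-TB 0.225% of the compared genes had a difference from NTB at least as high as that of Lilr4b, and 0.244% as that of Lilrb4a. Between IRF8-deficient and 4T1-TB the Lilr4b ratio was 1.06 with an interval that includes 1 (0.958 to 1.17). The Lilrb4a ratio was 1.28 (1.19 to 1.38), a difference of 0.35 that turned to -0.02 when libraries were scaled by summed reads, while that of Lilr4b turned from 0.08 to -0.28.

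The balance within this pair moved less than its level. Lilrb4a over Lilr4b was 2.09 in NTB (1.72 to 2.55) and 1.59 in 4T1-TB (1.45 to 1.75), against 1.93 in IRF8-deficient (1.78 to 2.10). The NTB interval overlaps both others, and the 4T1-TB interval lies apart from that of IRF8-deficient. The deposited RPKM imply 1487 bases for Lilr4b, against 1836 in GENCODE. Per GENCODE length, an alternative added after the values were seen, the ratios were 2.80, 2.14 and 2.59. Inhibitory Lilrb4a transcript was the more abundant of the pair in each library at either length.

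The PIR genes differed most in IRF8-deficient. Pirb had an RPKM of 2.86 in NTB (2.57 to 3.18) and 15.3 in 4T1-TB (14.3 to 16.3), against 60.6 in IRF8-deficient (58.8 to 62.4), with no overlap between the intervals. It was 5.33-fold higher in 4T1-TB than in NTB (4.71 to 6.05), 21.1-fold higher in IRF8-deficient than in NTB (19.0 to 23.6) and 3.97-fold higher in IRF8-deficient than in 4T1-TB (3.69 to 4.26). Only 0.281% of compared genes had a difference between IRF8-deficient and NTB at least as high as the 3.99 of Pirb. By RPKM Pirb stood under Lilrb4a in NTB and 4T1-TB, at 0.598 (0.512 to 0.698) and 0.432 (0.396 to 0.472) of its level, and over it in IRF8-deficient, at 1.34 (1.27 to 1.42). This order depends on gene length: the deposited RPKM imply 2728 bases for Pirb, against 3824 in GENCODE. Per GENCODE length, an alternative added after the values were seen, the ratios were 0.393, 0.284 and 0.879 (0.832 to 0.930), so Pirb stood under Lilrb4a in all 3 libraries. The ratio was higher in IRF8-deficient than in the other libraries at either length.

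The activating PIR-A members, Pira2 and Pira6, had low RPKM as deposited. Pira2 had an RPKM of 0.0838 in NTB from 13 reads and 0.585 in 4T1-TB from 45 reads, against 1.35 in IRF8-deficient from 122 reads. Pira6 had 0.0581, 0.285 and 0.911, from 7, 17 and 64 reads. Pira2 was 6.98-fold higher in 4T1-TB than in NTB, with a wide interval of 3.70 to 14.1, and 16.1-fold higher in IRF8-deficient (9.07 to 31.1). Pira6 was 4.90-fold (1.93 to 14.0) and 15.7-fold (7.19 to 40.6) higher. On log2(RPKM + 1) these large ratios at low levels gave Pira2 differences of 0.55 and 1.12. Pirb exceeded Pira2 34.2-fold in NTB (19.7 to 64.9) and 26.1-fold in 4T1-TB (19.3 to 36.04), against 44.9-fold in IRF8-deficient (37.5 to 54.2). By RPKM the inhibitory gene was thus the highest of the 3 PIR members in each library. Since 94.0% of the 50-base windows of Pira2 occur in other genes, this balance rests on how shared reads were counted, which was not tested. The level of Gm15922, which holds 83.7% of those windows, was not read, so the total PIR-A transcript is not known here. Summed over the 3 PIR genes the RPKM was 3.01, 16.1 and 62.8.

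The CD300 genes did not move as a group. Cd300a, an inhibitory receptor that binds phosphatidylserine and phosphatidylethanolamine on dying cells, had an RPKM of 7.69 in NTB (7.31 to 8.07) and 7.44 in 4T1-TB (6.92 to 7.99), against 9.48 in IRF8-deficient (8.94 to 10.04). The NTB and 4T1-TB intervals overlap, with a ratio of 0.968 (0.887 to 1.06). The IRF8-deficient level was 1.23 times that of NTB (1.14 to 1.33), and this difference of 0.27 turned to -0.20 when libraries were scaled by summed reads. Cd300a was the highest CD300 gene in NTB.

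Cd300lf, an ITIM-bearing receptor also known as CLM-1, differed from Cd300a in both comparisons. Its RPKM was 2.75 in NTB (2.41 to 3.13) and 16.2 in 4T1-TB from 678 reads, against 32.3 in IRF8-deficient (30.7 to 33.9). It was 5.89-fold higher in 4T1-TB than in NTB (5.07 to 6.87), 11.7-fold higher in IRF8-deficient than in NTB (10.2 to 13.5), and 1.99-fold higher in IRF8-deficient than in 4T1-TB (1.82 to 2.18). Cd300lf over Cd300a was 0.358 in NTB (0.310 to 0.411) and 2.18 in 4T1-TB (1.96 to 2.42), against 3.40 in IRF8-deficient (3.15 to 3.68). The order of the inhibitory CD300 genes thus reversed between NTB and both other libraries.

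Cd300lb, an activating receptor that pairs with the adaptor encoded by Tyrobp, was high in IRF8-deficient alone. Its RPKM was 3.61 in NTB (3.29 to 3.96) and 2.81 in 4T1-TB (2.42 to 3.26), against 35.01 in IRF8-deficient (33.7 to 36.4). The 4T1-TB level was 0.779 of that of NTB, with an interval below 1 (0.652 to 0.927). The IRF8-deficient level was 9.69-fold that of NTB (8.78 to 10.7) and 12.4-fold that of 4T1-TB (10.7 to 14.5). This was the highest of the members' differences between those libraries, 3.24, and the one member called at 4-fold there, where 1.67% of compared genes were called. Cd300lf over Cd300lb was accordingly 0.761 in NTB (0.647 to 0.892) and 5.75 in 4T1-TB (4.88 to 6.82), against 0.921 in IRF8-deficient (0.865 to 0.981). No 50-base window of Cd300lb occurs in another gene.

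Cd300ld, which encodes CLM-5, an activating receptor that pairs with the Fc receptor gamma chain, was near 0 in NTB. Its RPKM was 0.0825 in NTB (0.0377 to 0.157) from 9 reads and 2.59 in 4T1-TB (2.18 to 3.05) from 140 reads, against 2.70 in IRF8-deficient (2.31 to 3.14) from 172 reads. The ratios to NTB were 31.4 (16.1 to 70.0) and 32.8 (16.9 to 72.9), the largest among the members but with the few NTB reads setting wide intervals. With a pseudocount of 5 in place of 1 the differences from NTB were 0.58 and 0.60, and neither was called. The level in IRF8-deficient was 1.04 times that in 4T1-TB, with an interval that includes 1 (0.831 to 1.32), and the sign of this difference turned under scaling by summed reads and under rescaling without the 20 highest genes. Cd300ld stayed far below Cd300lf, its closest relative in coding sequence among the members, which exceeded it 33.3-fold in NTB (17.3 to 73.8) and 6.26-fold in 4T1-TB (5.21 to 7.57), against 11.9-fold in IRF8-deficient (10.2 to 14.1).

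Sirpa encodes the inhibitory receptor for CD47, the signal by which cells avoid being engulfed. It was the highest member in every library, with an RPKM of 47.5 in NTB (46.5 to 48.5) and 53.6 in 4T1-TB (52.1 to 55.1), against 95.7 in IRF8-deficient (93.9 to 97.6). The tumor-bearing library stood 1.13-fold over NTB (1.09 to 1.17). The IRF8-deficient library stood 2.02-fold over NTB (1.96 to 2.07) and 1.79-fold over 4T1-TB (1.73 to 1.85). The Sirpa difference between IRF8-deficient and NTB, 1.00 after rounding, fell just short of the call. It was 0.81 when rescaled without the 20 highest genes and 0.47 under scaling by summed reads. The difference of 0.17 between 4T1-TB and NTB fell to 0.05 and 0.02 in the same settings. Sirpa exceeded Pirb 16.6-fold in NTB (14.9 to 18.5) and 3.51-fold in 4T1-TB (3.27 to 3.77), against 1.58-fold in IRF8-deficient (1.53 to 1.64).

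**Figure D3:**
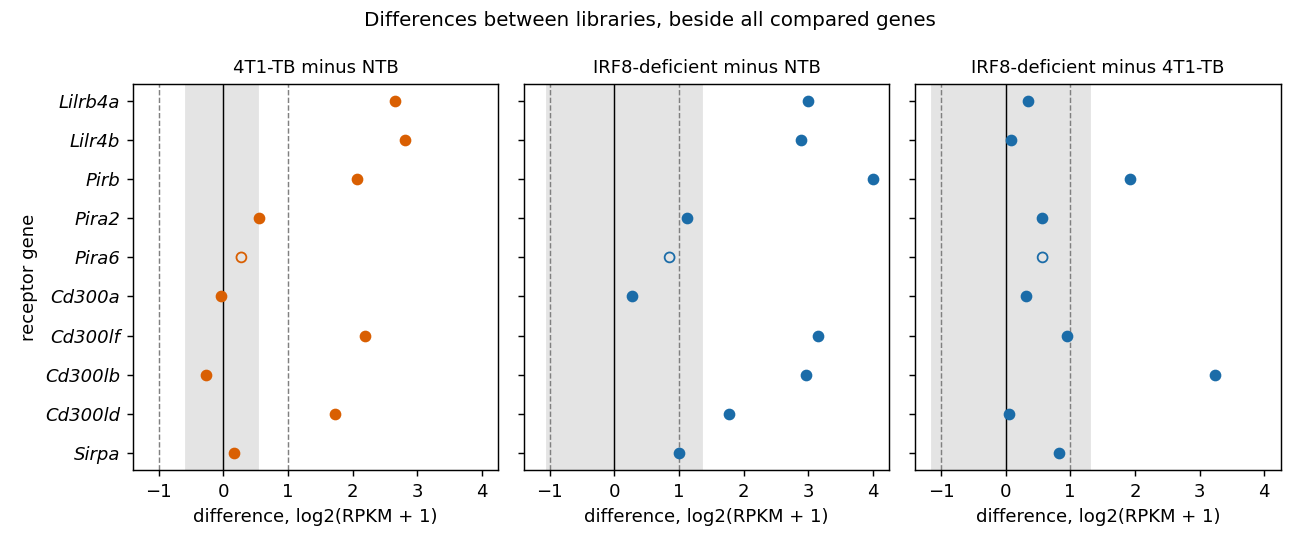
Differences on log2(RPKM + 1) for each receptor gene in the 3 comparisons, with the central 90% of the compared genes in grey, the call limits of 1 as dashed lines, and Pira6, which missed the minimum level, as an open circle. Lilrb4a, Lilr4b, Pirb, Cd300lf and Cd300ld lie beyond the limit against NTB in both libraries, and Cd300lb lies beyond it only in the panels with IRF8-deficient.

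The order of the levels changed with the library. In NTB Sirpa was followed by Cd300a, Lilrb4a and Cd300lb, then by Pirb, Cd300lf and Lilr4b, where each neighbour's interval overlapped the next, and by Pira2, Cd300ld and Pira6, which also overlapped in turn. In 4T1-TB Sirpa was followed by Lilrb4a and Lilr4b, then by Cd300lf and Pirb, which overlapped, Cd300a, the overlapping Cd300lb and Cd300ld, and the overlapping Pira2 and Pira6. In IRF8-deficient the order was Sirpa, Pirb, Lilrb4a, the overlapping Cd300lb and Cd300lf, Lilr4b, Cd300a, Cd300ld, and the overlapping Pira2 and Pira6. Cd300a thus went from the second place in NTB to the sixth and seventh places while its own RPKM stayed between 7.44 and 9.48. Per GENCODE length Pirb stood under Cd300lf in NTB and under Lilrb4a in IRF8-deficient.

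**Figure D4:**
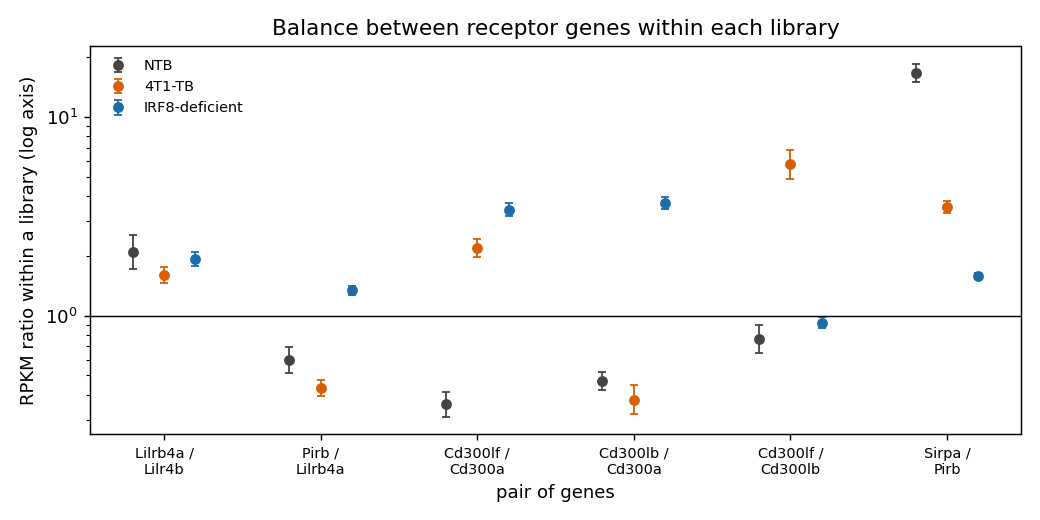
Ratio of the RPKM of the first gene to that of the second within each library, on a log axis with 95% counting intervals, and a line at 1. By the deposited RPKM Lilrb4a over Lilr4b stays between 1.59 and 2.09, whereas Cd300lf over Cd300lb is 5.75 in 4T1-TB and below 1 in the other libraries.

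Genes with a pattern like that of each member were found by the distance between the 2 differences from NTB, among the 8517 other genes that reached an RPKM of 5 in any library. The distance is a description over 3 libraries. It rests on log2(RPKM + 1), so a gene near 0 in NTB can lie close to a member with smaller RPKM ratios. Fpr1, Mir6236 and Cd101 below are such low genes in NTB. Cxcr2, a chemokine receptor of neutrophils, was nearest to both Lilrb4a (0.142) and Lilr4b (0.278), with an RPKM of 4.38, 30.2 and 39.5. Il1r2, a decoy interleukin-1 receptor, and Mir6236 came next for both. The RPKM of Mir6236 was 0.182, 8.05 and 11.2. Pirb was nearest to Fpr1, a formyl peptide receptor (0.141), with an RPKM of 0.422, 5.58 and 21.1, then to the sialic acid receptor gene Cd33 (0.442) and the protease gene Adam8 (0.514). Cd300lb was nearest to Tnfsf13b, the B cell activating cytokine BAFF (0.022), with an RPKM of 2.38, 1.78 and 25.04, then to Sh3bp5 (0.151) and the urokinase receptor gene Plaur (0.231). Cd300lf had no neighbour closer than 0.402, at which Rn45s, the ribosomal RNA precursor, came before Cxcr2 (0.411) and Cd101 (0.509). The RPKM of Cd101 was 0.0965, 3.71 and 5.88. The nearest to Cd300a were Fbxo42 (0.005), Ptges2 (0.009) and Ccni (0.009), and to Sirpa Ezr (0.008), Rac2 (0.009) and Lnp (0.011).

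Other genes of the same families were mostly low. Of 29 further LILR, PIR, CD300 and SIRP symbols sought, some of them older names of members, 12 matched, with 4 at 0 in every library, and 3 reached an RPKM of 1. The symbols without a match were not analysed here. Sirpb1b, an activating-type SIRP, had 0.209 in NTB and 3.64 in 4T1-TB, against 2.15 in IRF8-deficient, and was called higher in both comparisons with NTB. Sirpb1a had 0.0544, 2.01 and 0.435 and was called higher in 4T1-TB. Lilra6 had 0.572, 0.873 and 4.46 and was called higher in IRF8-deficient. These are again close copies, and which genes passed the minimum depended on the library in which they were high.

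Genes that transmit the inhibitory signal were read beside all compared genes. Of 8 effectors of ITIMs, 0 were called in 4T1-TB against NTB, where 1.67% of all compared genes were higher and 1.35% lower. Their median difference was 0.10. In IRF8-deficient against NTB 1 was called higher and 1 lower, beside 8.78% and 5.73% of all compared genes. Among 8 genes such counts are near those shares. The median there was 0.19. Scaling by summed reads turned these medians to -0.06 and -0.33, and left 0 called higher and 2 lower in IRF8-deficient. Ptpn6, the phosphatase SHP-1 that inhibitory paired receptors recruit, had an RPKM of 78.1, 89.9 and 186. Inppl1, a lipid phosphatase, had 2.83, 2.32 and 0.0977.

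Several genes that transmit the activating signal were called higher, most of them in IRF8-deficient. Of 10 adaptors and kinases of the ITAM pathway, 2 were called higher in 4T1-TB against NTB, beside 1.67% of all compared genes. Fgr, a tyrosine kinase gene of myeloid cells, was 1 of the 2 (4.26, 12.5 and 54.9). In IRF8-deficient against NTB 6 were called higher and 0 lower, beside 8.78% and 5.73% of all compared genes. Fcer1g, which encodes the Fc receptor gamma chain used by PIR-A and Cd300ld, had an RPKM of 35.8, 35.6 and 254. Tyrobp, which encodes the adaptor DAP12 used by Cd300lb, had 197, 161 and 679. The medians were 0.10 and 1.13, and under scaling by summed reads -0.05 and 0.61, with 4 calls in IRF8-deficient. Both adaptors thus stood in NTB and 4T1-TB at levels far above those of the members named with them. Other receptors that share these adaptors were not set against them.

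Genes of the ligands were also measured in these cells. Of 11 genes for ligands of these receptors, or for thrombospondin, a ligand of CD47, 10 were compared. In 4T1-TB against NTB 0 were called higher and 1 lower, beside 1.67% and 1.35% of all compared genes. The lower gene was Thbs1, which encodes thrombospondin, with an RPKM of 9.86 in NTB and 0.559 in 4T1-TB, against 73.7 in IRF8-deficient. In IRF8-deficient against NTB 6 were called higher and 0 lower, beside 8.78% and 5.73% of all compared genes. Their median was 1.32, and 0.79 under scaling by summed reads, with 4 calls. The MHC class I genes, which encode ligands of the PIRs, were among the 6: H2-K1 had 133, 137 and 440 and B2m 627, 512 and 1520. The MHC haplotype differs between these strains as well as the genotype. Apoe had 3.96, 5.62 and 31.5. Cd47, the ligand of Sirpa, had 133, 162 and 139 and was not called.

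**Figure D5:**
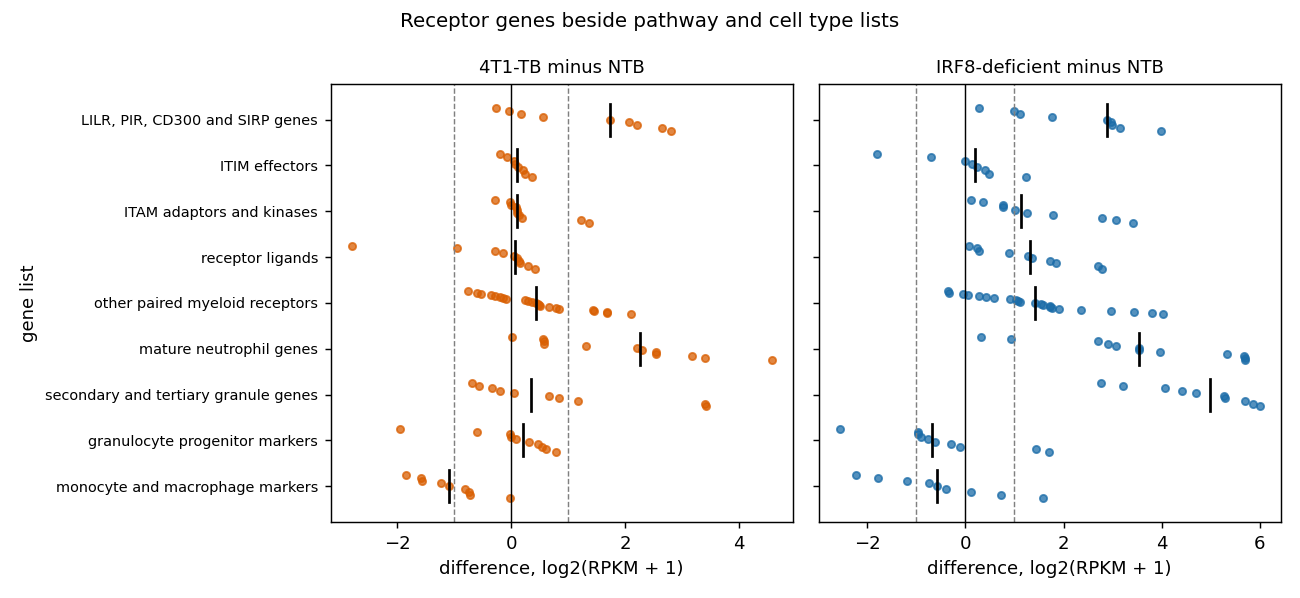
Differences from NTB on log2(RPKM + 1) of the compared genes of each list, with the list's median as a black bar and the call limits as dashed lines. The receptor genes have medians of 1.73 and 2.89, and Cd300ld and Pira2 among them passed the minimum level only through libraries where they are high.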

How the data were processed

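The deposited values are RPKM that the authors computed for each gene symbol, 1 file per library, and they were used as deposited. Per the submitters' processing notes the tools included TopHat2 2.0.13, HTSeq 0.6.1, edgeR 3.12.1, Picard 1.97, cutadapt 1.2.1 and CASAVA 1.8.2, and the build was mm10. RNA was extracted with TRIzol, per the labels' protocols. The sources used here do not state strandedness, annotation or the treatment of multi-mapped reads.

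Between libraries, the RPKM of a gene formed ratios of whole numbers, so reads were recovered for 15158 genes. The implied gene length was whole within 0.02 bases for 90.9% of genes with at least 30 reduced reads. Of 14553 genes with a GENCODE reference length, 89.6% lay within 0.8 to 1.25 of it. Of the members, Pirb did not (2728 bases implied, 3824 in the reference), and Lilrb4a and Cd300lf took a common factor chosen with that reference, so their reads and intervals rest on it. The library sizes implied by the RPKM were 1.06, 0.952 and 0.733 times the recovered reads in NTB, 4T1-TB and IRF8-deficient, and Rn45s, named after its values were seen, held 1.80%, 6.34% and 13.9% of reads. The smallest step of 1 read was an RPKM of 0.0223, 0.0450 and 0.0383 at a length of 1 kilobase. Levels carry exact Poisson intervals and ratios exact binomial (Clopper-Pearson) intervals at 95%.

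Differences used log2(RPKM + 1), a minimum RPKM of 1 in 1 library and a call at 2-fold. Named were the 10 members, Irf8, up to 4 genes per list with the largest difference, and the 3 genes (RPKM of at least 5) nearest to each member that reached an RPKM of 5. The markers named at 0 or for the sort, and other genes of the lists given as background, were named after their values were seen. The values of 1 listed gene are not reported here. The members and lists were chosen with earlier results of these data known. Steps were tested on simulated data. Python 3.11.15, numpy 2.4.6, pandas 2.3.3, scipy 1.17.1, Biopython 1.88 and matplotlib 3.10.9 were used.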

Additional observations from a re-analysis of the deposited data

How the results depend on the processing

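No paired analysis was possible because each group had 1 library, and no library could be left out. The counts of members called higher ranged from 4 to 7 in 4T1-TB against NTB and from 5 to 9 in IRF8-deficient against NTB over the alternatives (pseudocounts of 0.1 and 5, 3 other scalings, no filter, an RPKM of at least 5, a call at 4-fold, close copies summed, and a call where the counting interval of the ratio excludes 1, the last chosen after seeing the data). In IRF8-deficient against 4T1-TB the 2 calls became 1 at 4-fold (Cd300lb) and 7 with the counting interval. With the counting interval Cd300lb was also the 1 member lower in 4T1-TB than in NTB, against 0 in the main call. Sirpa was called higher in IRF8-deficient against NTB with a pseudocount of 0.1 and with median ratio scaling. Its difference there fell to 0.81 when rescaled without the 20 highest genes and to 0.47 when scaled by summed reads. In the same comparison Pira2 was no longer called with a pseudocount of 5 (0.32) or when scaled by summed reads (0.83). Cd300ld lost its call against NTB in both libraries with a pseudocount of 5. Per GENCODE length, also chosen after seeing the data, Pirb over Lilrb4a in IRF8-deficient was 0.879, against 1.34 by RPKM. Of 150 recomputed member differences 98 moved by no more than counting error, 52 by more, and 0 of those called changed sign.

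Scaling by summed reads lowered the median of all compared genes by 0.14, 0.46 and 0.32 (log2) in 4T1-TB against NTB, IRF8-deficient against NTB and IRF8-deficient against 4T1-TB. Calls of higher then made up 44.8%, 19.9% and 25.2% of all calls, against 55.3%, 60.5% and 55.5%. Rescaling without the 20 highest genes gave 43.7% in IRF8-deficient against NTB. At RPKM near that of a few reads, as for Pira2, Pira6 and Cd300ld in NTB, depth limits the ratios.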

Other observations

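Genes of other paired or related receptor families of myeloid cells, outside LILR, PIR, CD300 and SIRP, were also measured. Of 28 such genes 23 were compared, and 5 were called higher and 0 lower in 4T1-TB against NTB, with a median difference of 0.44, beside 1.67% and 1.35% of all compared genes. Clec4d, a C-type lectin receptor that signals through the Fc receptor gamma chain, had an RPKM of 1.44 in NTB and 9.44 in 4T1-TB, against 6.33 in IRF8-deficient. Its neighbour Clec4e, which encodes Mincle, had 2.29, 9.55 and 5.15. The sialic acid receptor gene Cd33 had 2.31, 9.56 and 45.3, and Siglece, an ITIM-bearing sialic acid receptor, had 4.64, 14.3 and 59.6. Both lectin genes were thus highest in 4T1-TB, and both sialic acid receptor genes in IRF8-deficient.

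In IRF8-deficient against NTB 15 of the 23 were called higher and 0 lower, with a median of 1.42, beside 8.78% and 5.73% of all compared genes. Under scaling by summed reads 11 were called higher, with a median of 0.90. Ceacam10, listed for its family, the carcinoembryonic antigens, and not for a role as a receptor, had an RPKM of 0.553, 1.46 and 24.3. Pilra, an inhibitory paired immunoglobulin-like type 2 receptor, had 3.50, 11.2 and 34.0. These genes were listed with earlier results of these data known.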
